A study of Mus musculus with 20 samples.

Results

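The surgery by diet interaction in liver is the difference, gene by gene, between the response to a high-fat diet (HFD) after Roux-en-Y gastric bypass (RYGB) and the response after sham surgery. It was computed as the log2 fold change of RYGB Chow vs. RYGB HFD less that of Sham Chow vs. Sham HFD, so a positive value means that HFD raised a gene more, or lowered it less, in RYGB than in sham mice. All genes with at least 2 CPM (counts scaled to a common library size) in at least 3 mice took part, which left 12289 of the 54532 genes in the table, and 28411 of those genes had a count in any mouse. The question was which of them respond to diet differently, or in opposite directions, under the 2 surgeries.

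Liver RNA came from 20 male C57BL/6 mice that had been made obese by 12 weeks of HFD. They then had RYGB, in which food bypasses most of the stomach and the upper small intestine, or a sham operation, and were kept for 8 weeks on chow or on HFD. This gave 4 groups of 5 mice, Sham Chow and Sham HFD after the sham operation and RYGB Chow and RYGB HFD after bypass, with 1 library per mouse, and all 4 groups share the obesity before surgery. By the study's methods, Sham HFD mice weighed more than the other groups. Body weights were not analysed here, so diet and obesity cannot be told apart in the sham arm. Total counts ran from 14604854 to 22537498 per mouse. RYGB Chow replicate 3 stood furthest from its group, with a median correlation of 0.966 with the other RYGB Chow mice, and its values are named where they matter. Hepatocyte markers, *Alb* among them, summed to between 76898 and 130542 CPM in every mouse, and the labels name no sequencing batch. In bulk liver RNA, fewer cells of a type and less RNA per cell cannot be told apart.

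Hepatocytes make most plasma proteins, among them the clotting and complement factors, and they also synthesize cholesterol, clear drugs and foreign compounds, and release the iron hormone hepcidin. Cholesterol synthesis genes are turned on together by the transcription factor SREBP2 when cell sterols are low, and glutathione transferases and *Nqo1* by NRF2. Many liver genes of male mice are set by the pulses in which growth hormone is released, which keep male-biased genes high and female-biased genes low.

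The interaction was significant for 622 genes (5.06% of those tested), of which 305 (2.48%) were positive and 317 (2.58%) negative, by edgeR's quasi-likelihood test with Benjamini-Hochberg adjustment below 0.05. At an unadjusted p below 0.05, 20.8% of all genes passed (10.5% positive, 10.2% negative). Scaling by library size alone, which lowered the median interaction of all genes from 0.02 to -0.13, gave 151 positive and 597 negative genes, and offsets for gene length gave 530 and 309. Leaving out 1 mouse lowered the positive count to between 177 and 203 without Sham Chow or Sham HFD replicate 3 or 5 or RYGB HFD replicate 2, and the negative count to 200 and 210 without Sham HFD replicates 3 and 5. The significant interactions had a median size of 0.841 on the log2 scale, and 256 exceeded 1. Across all tested genes, the 2 diet responses had a Pearson correlation of 0.231 and a Spearman correlation of 0.289, given as a description since genes are not independent replicates. The median absolute diet response was 0.202 in sham and 0.139 in RYGB mice.

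The 622 genes were sorted by the diet contrasts that passed an unadjusted p-value of 0.05 in sham mice, in RYGB mice or in both. The study's methods use unadjusted p-values for gene sets shared between its contrasts and adjusted ones for its set of diet genes specific to RYGB. HFD changed 367 of them (2.99% of all tested genes) in sham mice only, with 201 raised and 166 lowered. Another 146 genes (1.19%) moved in opposite directions, of which 80 fell in sham and rose in RYGB mice and 66 did the reverse. With adjusted p-values in both diet contrasts, 20 genes of the 146 kept this class, and without Sham HFD replicate 3 it held 89 genes. In RYGB mice only, HFD raised 41 and lowered 35 genes (76, or 0.618%). The remaining 33 (0.269%) moved the same way by unequal amounts, 28 of them more in sham mice. A response found in 1 surgery only is a class of p-values and does not show that the other surgery had none. After adjustment over all genes, HFD alone raised 1337 (10.9%) and lowered 1319 genes (10.7%) in sham mice, against 245 (1.99%) and 203 (1.65%) in RYGB mice. Both diet contrasts enter the interaction, so these counts and the classes describe the same values.

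The opposite responses were moderate in size. Genes that fell in sham and rose in RYGB mice had median log2 fold changes of -0.34 and 0.31, and those of the reverse kind 0.46 and -0.41. The sham only class held larger changes, with medians of 0.99 for its raised and -0.69 for its lowered genes and of -0.12 and 0.08 for the same genes in RYGB mice. In 12 of the 146 genes of the opposite class the mice on HFD overlapped with those on chow in neither surgery. Among all tested genes, 14 (0.114%) were free of overlap in both surgeries with opposite directions. The class was drawn from the same values, so these counts describe it and do not test it.

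**Figure D1:**
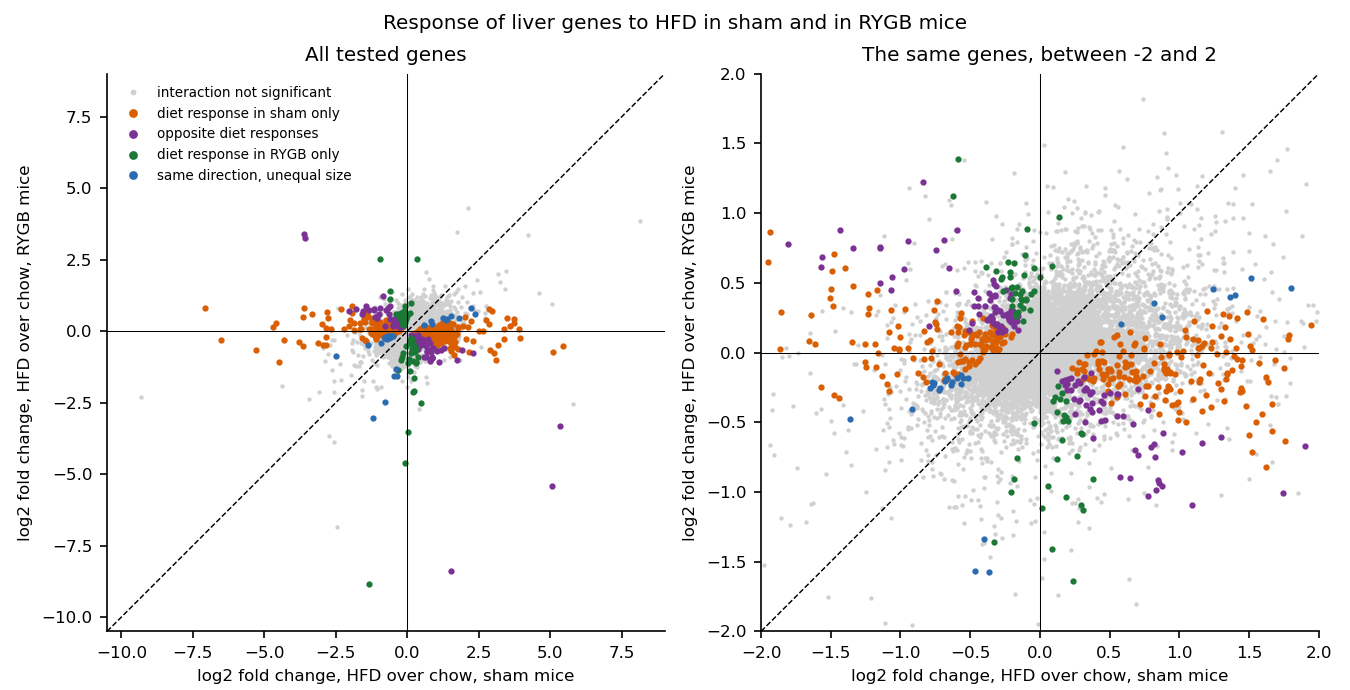
Log2 fold change of HFD over chow in sham mice (x axis) against the same in RYGB mice (y axis) for the 12289 tested genes, with the range from -2 to 2 enlarged on the right, colored by class, and with a dashed line where both responses are equal. Most of the 367 sham only genes lie along the horizontal axis, and the 146 genes with opposite responses fill the upper left and lower right.

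Sham HFD was the group that stood apart most often. In 574 tested genes (4.67%) all 5 Sham HFD mice lay above or below the other 15 mice, and 252 of the 622 interaction genes (40.5%) were of this kind, with 129 at the top and 123 at the bottom. For RYGB HFD the counts were 123 of all genes (1.00%) and 62 interaction genes (9.97%), of which 34 were highest and 28 lowest. Sham Chow stood apart in 28 genes (0.228%), 9 of them with an interaction, and RYGB Chow in 9 genes (0.0732%), none of them with an interaction by this test. The same values entered the interaction test, so these counts describe the interaction genes and do not test them.

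**Figure D2:**
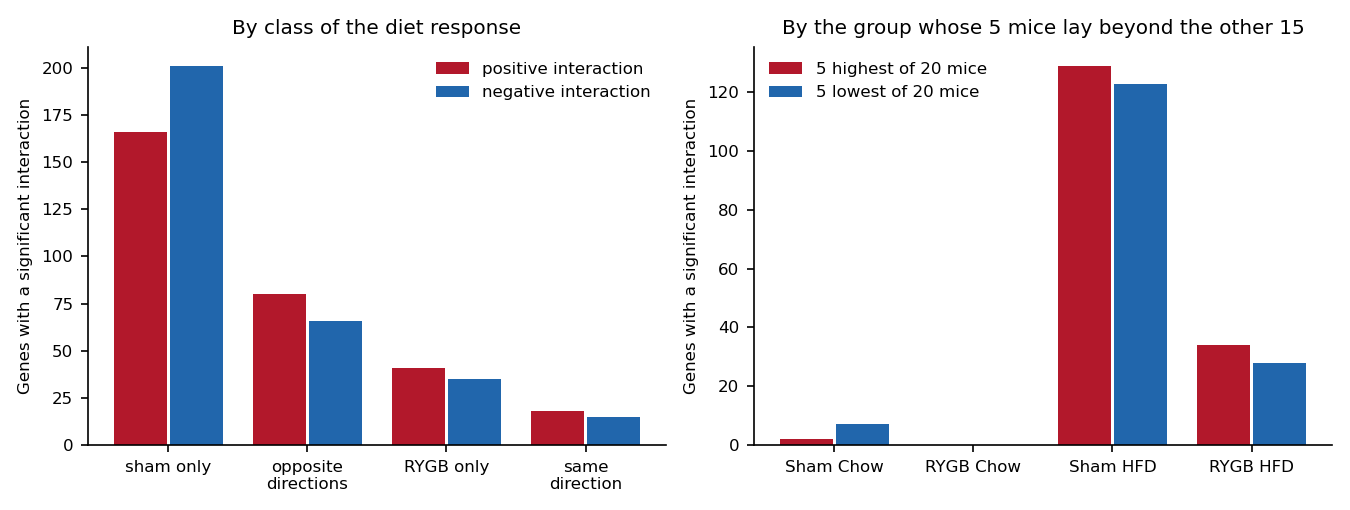
Number of genes with a significant interaction (y axes) by class of diet response on the left, with bars for positive and negative interactions, and on the right by the group whose 5 mice lay above or below the other 15. The sham only class (166 positive, 201 negative) and Sham HFD (129 highest, 123 lowest) have the tallest bars.

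Genes of the coagulation and fibrinolysis list had significant interactions in 1 direction only. Of 30 tested genes of coagulation and fibrinolysis, 14 had a significant positive interaction and none a negative one by edgeR (1 negative at an unadjusted p below 0.05, and 12 to 19 positive and at most 1 negative under the other tools, scalings and filters), beside 2.48% positive among all genes. Of these, 10 belonged to the opposite class. The list also holds plasma proteins that are not clotting factors, *Ahsg* (fetuin-A) and *Vtn* among them, and these genes count in both numbers. The median interaction of the list was 0.42 (25 positive, 5 negative), from median diet responses of -0.20 in sham and 0.23 in RYGB mice.

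Fibrinogen, the protein of the clot, has 3 chains whose genes lie side by side on mouse chromosome 3, *Fgg* (ENSMUSG00000033860, chromosome 3 from 83007724 to 83015049), *Fga* (ENSMUSG00000028001, chromosome 3 from 83026076 to 83033627) and *Fgb* (ENSMUSG00000033831, chromosome 3 from 83040141 to 83049863). The 250 bases before the start of each gene are shown because the 3 genes moved together. They are from RefSeq on GRCm38.p6, and capitals mark CTGGGAA, the core of the element through which the cytokine IL-6 acts on fibrinogen genes, on either strand.
Fga, GRCm38.p6, chr3:83025903-83026152, plus strand: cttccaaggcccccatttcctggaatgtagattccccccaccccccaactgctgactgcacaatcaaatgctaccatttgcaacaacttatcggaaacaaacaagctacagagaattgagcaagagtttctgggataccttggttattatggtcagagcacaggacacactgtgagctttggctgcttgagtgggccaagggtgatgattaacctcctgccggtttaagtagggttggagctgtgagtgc
Fgb, GRCm38.p6, chr3:83049864-83050113, minus strand: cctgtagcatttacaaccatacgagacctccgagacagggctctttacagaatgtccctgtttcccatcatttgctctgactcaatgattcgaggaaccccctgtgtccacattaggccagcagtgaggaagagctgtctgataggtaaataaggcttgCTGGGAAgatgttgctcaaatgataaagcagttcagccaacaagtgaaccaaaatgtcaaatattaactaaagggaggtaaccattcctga
Fgg, GRCm38.p6, chr3:83007474-83007723, plus strand: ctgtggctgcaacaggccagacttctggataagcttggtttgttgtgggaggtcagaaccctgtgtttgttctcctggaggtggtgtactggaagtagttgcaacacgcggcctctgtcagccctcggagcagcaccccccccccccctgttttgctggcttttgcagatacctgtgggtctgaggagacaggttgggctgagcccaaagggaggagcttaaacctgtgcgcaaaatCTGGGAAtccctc
The motif was found in *Fgb* and *Fgg* and in 4 of the 24 coagulation genes with a RefSeq promoter, compared with 10.4% of all 27025 genes in the promoter table. A match is a description of these letters and not a binding site. RefSeq's starts of *Fga*, *Idi1* and *Cyp51* lie inside the spans given for these genes by GENCODE, whose earliest transcripts begin further upstream.

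*Fgb* was 4060, 3190, 4260, 3420 and 3600 CPM in Sham Chow and 2680, 3410, 2810, 2960 and 2820 CPM in Sham HFD, and 3320, 4000, 3300, 3530 and 4160 CPM in RYGB Chow and 4830, 5350, 5480, 4980 and 5630 CPM in RYGB HFD. Every RYGB HFD mouse lay above all 15 others, and Sham HFD was lowest apart from replicate 2, which overlapped with the chow groups. The log2 fold change of HFD over chow was -0.34 in sham mice (SE 0.09, adjusted p = 0.0152) and 0.52 in RYGB mice (SE 0.09, adjusted p = 0.00365), and the interaction was 0.86 (SE 0.13, adjusted p = 0.0012). *Fga* had 3878 ± 465 CPM in Sham Chow and 3106 ± 342 CPM in Sham HFD, and 3759 ± 417 CPM in RYGB Chow and 4971 ± 537 CPM in RYGB HFD (mean ± SD, n = 5 mice in this and all later group values), with an interaction of 0.72 (SE 0.15, adjusted p = 0.00704). *Fgg* gave 0.82 (SE 0.14, adjusted p = 0.00234) from diet responses of -0.33 in sham and 0.49 in RYGB mice. *Plg*, the precursor of the fibrin-cutting enzyme plasmin, moved with its substrate, with diet responses of -0.19 in sham and 0.30 in RYGB mice and an interaction of 0.49 (SE 0.11, adjusted p = 0.0124). *Kng1*, which encodes the kinin precursor kininogen, had an interaction of 0.70 (SE 0.12, adjusted p = 0.00206), and *Vtn*, the adhesive plasma protein vitronectin, one of 0.59 (SE 0.10, adjusted p = 0.00201). For both, the diet responses were of opposite sign, -0.49 in sham and 0.21 in RYGB mice for *Kng1* and -0.36 in sham and 0.24 in RYGB mice for *Vtn*.

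Complement genes gave 8 positive interactions and no negative one among 25 tested by edgeR (4 negative at an unadjusted p below 0.05, 7 to 9 positive under the other tools, scalings and filters, and 3 negative with DESeq2), beside 2.48% positive and 2.58% negative among all genes. The list median was 0.41, with median diet responses of -0.03 in sham and 0.17 in RYGB mice. *C8b* (ENSMUSG00000029656, chromosome 4 from 104766317 to 104804548) and *C8a* (ENSMUSG00000035031, chromosome 4 from 104815679 to 104876398), neighbours that encode chains of the eighth complement component, part of the pore that complement builds in membranes, had the smallest and next smallest p-values of all genes. *C8b* was 329, 235, 332, 256 and 349 CPM in Sham Chow and 100, 77, 61.7, 70 and 59.4 CPM in Sham HFD, and 217, 312, 249, 338 and 265 CPM in RYGB Chow and 277, 312, 264, 377 and 321 CPM in RYGB HFD. The 5 Sham HFD mice lay below all 15 others, which overlapped with each other. HFD over chow was -2.03 in sham mice (SE 0.16, adjusted p = 5.33e-08) and 0.17 in RYGB mice (SE 0.15, adjusted p = 0.598), and the interaction was 2.19 (SE 0.22, adjusted p = 1.99e-05). *C8a* was 693, 670, 794, 610 and 702 CPM in Sham Chow and 438, 357, 305, 306 and 249 CPM in Sham HFD, and 694, 822, 710, 907 and 723 CPM in RYGB Chow and 1000, 1040, 1170, 1030 and 1020 CPM in RYGB HFD. Here both HFD groups stood apart, Sham HFD below and RYGB HFD above all chow-fed mice, and the diet response was -1.07 in sham mice (SE 0.12, adjusted p = 6.1e-06) and 0.45 in RYGB mice (SE 0.12, adjusted p = 0.0355). Its interaction was 1.52 (SE 0.17, adjusted p = 6.69e-05).

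*C3* (ENSMUSG00000024164, chromosome 17 from 57203970 to 57228136), on which the complement pathways meet, followed the same pattern at a smaller size. Its values were 7500, 5820, 6090, 6280 and 7210 CPM in Sham Chow and 4570, 5020, 4660, 5000 and 4420 CPM in Sham HFD, and 8120, 8460, 6380, 6460 and 6220 CPM in RYGB Chow and 8810, 8840, 10800, 8780 and 11000 CPM in RYGB HFD, so that every Sham HFD mouse lay below and every RYGB HFD mouse above all chow-fed mice. The interaction was 0.91 (SE 0.15, adjusted p = 0.0018), with diet responses of -0.47 in sham and 0.44 in RYGB mice.

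**Figure D3:**
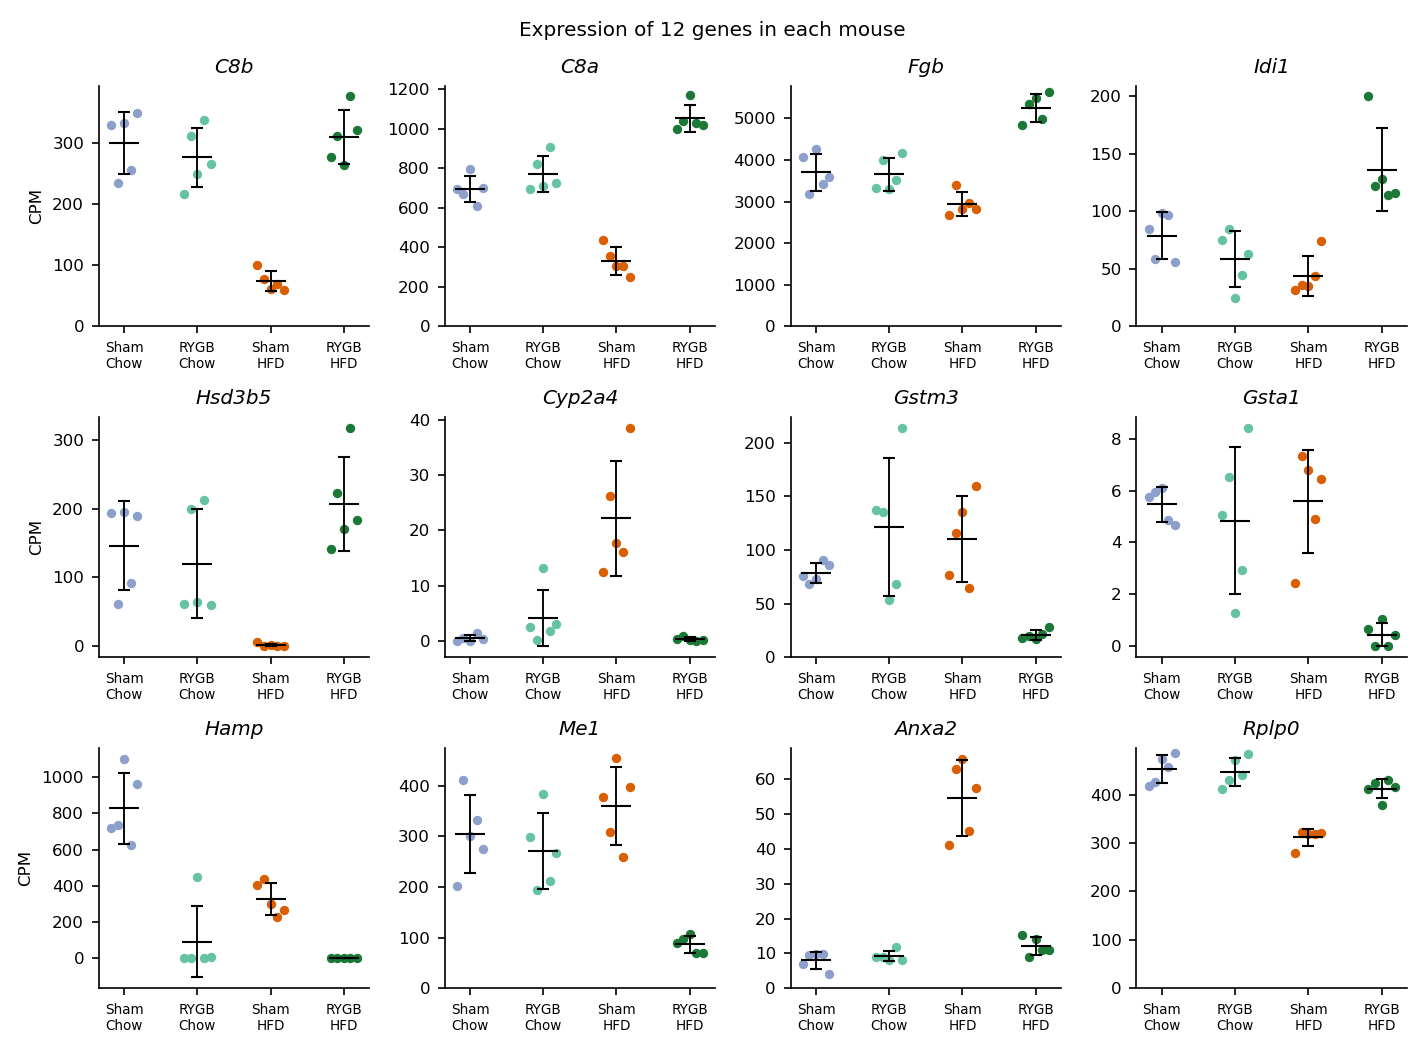
Expression in CPM (y axes) of 12 genes in each of the 20 mice, with 1 point per mouse and black bars for the group mean ± SD (n = 5). Sham HFD is lowest for *C8b*, *C8a*, *Hsd3b5* and *Rplp0* and highest for *Anxa2* and, apart from 1 RYGB Chow mouse within its range, *Cyp2a4*. RYGB HFD is highest for *C8a*, *Fgb* and *Idi1* and lowest for *Gstm3*, *Gsta1*, *Hamp* and *Me1*.

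Cholesterol synthesis enzymes all leaned toward higher values on HFD in RYGB than in sham mice. All 20 interactions were above 0, with a median of 0.96 (0.85 with library size alone and 0.99 with gene length offsets), 4 of them significant (beside 2.48% positive among all genes) and 15 at an unadjusted p below 0.05 (beside 10.5%). The 4 were *Idi1*, *Cyp51*, *Tm7sf2* and *Nsdhl*, the last of which the rule for named genes would not have picked and which was named after its values were seen. The median diet response of the list was -0.34 in sham and 0.73 in RYGB mice. After adjustment over all genes, HFD lowered 5 of the 20 in sham mice (beside 10.7% of all genes) and raised 2 in RYGB mice (beside 1.99%). The count of 4 fell to 2 without Sham Chow replicate 3, Sham HFD replicate 3 or RYGB HFD replicate 2, and rose to 8 without Sham HFD replicate 5.

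The 250 bases before the starts of 3 of these genes and of *Hmgcs1*, an early enzyme of the pathway, are printed below. Capitals mark the CCAAT box, on either strand. The CCAAT box is bound by NF-Y, a known partner of SREBP2 at sterol-controlled genes, and the sequences are RefSeq's on GRCm38.p6.
Idi1, GRCm38.p6, chr13:8885356-8885605, plus strand: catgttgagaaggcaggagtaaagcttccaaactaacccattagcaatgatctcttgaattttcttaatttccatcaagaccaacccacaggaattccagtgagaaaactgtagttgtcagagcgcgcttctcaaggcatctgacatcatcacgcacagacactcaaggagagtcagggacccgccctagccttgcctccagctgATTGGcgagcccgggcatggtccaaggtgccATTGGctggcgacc
Cyp51, GRCm38.p6, chr5:4104698-4104947, minus strand: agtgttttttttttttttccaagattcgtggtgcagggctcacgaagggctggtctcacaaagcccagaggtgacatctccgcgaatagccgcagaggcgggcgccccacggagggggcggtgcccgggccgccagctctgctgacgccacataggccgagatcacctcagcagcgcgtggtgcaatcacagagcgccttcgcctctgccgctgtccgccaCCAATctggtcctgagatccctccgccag
Tm7sf2, GRCm38.p6, chr19:6067851-6068100, minus strand: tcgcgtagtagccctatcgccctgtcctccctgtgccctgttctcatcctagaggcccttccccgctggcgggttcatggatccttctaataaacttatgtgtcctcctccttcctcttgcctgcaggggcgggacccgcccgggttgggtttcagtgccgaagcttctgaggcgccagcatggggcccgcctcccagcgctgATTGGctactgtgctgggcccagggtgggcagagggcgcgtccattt
Hmgcs1, GRCm38.p6, chr13:119690101-119690350, plus strand: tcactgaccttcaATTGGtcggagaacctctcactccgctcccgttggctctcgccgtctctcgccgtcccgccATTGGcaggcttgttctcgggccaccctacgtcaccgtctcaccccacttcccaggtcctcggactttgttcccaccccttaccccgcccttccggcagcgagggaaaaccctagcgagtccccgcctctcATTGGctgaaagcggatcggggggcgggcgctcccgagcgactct
The box was found in 14 of the 15 cholesterol synthesis genes with a promoter in the table and in 37.5% of all genes there. All 4 genes with a significant interaction held it. The sterol regulatory element spelled TCACNCCAC was found in 1 of these 15 promoters, *Hmgcs1*, and in 1.22% of all genes.

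*Idi1* (ENSMUSG00000058258, chromosome 13 from 8885501 to 8892451), which makes the branched building block of sterols, was 84.2, 58.1, 98.1, 96.6 and 55.7 CPM in Sham Chow and 31.2, 35.9, 35.1, 43.4 and 73.8 CPM in Sham HFD, and 74.7, 84.9, 24.9, 44.4 and 62.9 CPM in RYGB Chow and 200, 122, 128, 114 and 116 CPM in RYGB HFD. All RYGB HFD mice lay above the other 15, and Sham HFD replicate 5 lay among the chow-fed mice while its 4 group mates were below all but 1 of them. The diet response was -0.84 in sham mice (SE 0.28, adjusted p = 0.0379) and 1.22 in RYGB mice (SE 0.28, adjusted p = 0.0195), and the interaction 2.06 (SE 0.40, adjusted p = 0.00581). *Cyp51* (ENSMUSG00000001467, chromosome 5 from 4081145 to 4104746), which removes a methyl group from lanosterol, was 152, 127, 191, 193 and 138 CPM in Sham Chow and 62.9, 86.4, 81, 93.5 and 153 CPM in Sham HFD, and 153, 197, 96.2, 112 and 165 CPM in RYGB Chow and 314, 281, 214, 187 and 209 CPM in RYGB HFD. Of its RYGB HFD mice, replicate 4 lay among the chow-fed mice and the others above them, and again Sham HFD replicate 5 was the highest of its group. The interaction was 1.48 (SE 0.31, adjusted p = 0.00804) from diet responses of -0.75 in sham and 0.74 in RYGB mice. *Tm7sf2*, a sterol reductase, had an interaction of 1.21 (SE 0.31, adjusted p = 0.0277) with diet responses of -1.02 in sham and 0.19 in RYGB mice. It lost significance without any 1 of Sham Chow replicates 3 and 5, Sham HFD replicates 2 and 3 and RYGB HFD replicate 2, where the interaction lay between 1.14 and 1.18. *Sqle*, squalene epoxidase, had 1.75 (adjusted p = 0.0827), short of the threshold, and passed it, at 2.28, without Sham HFD replicate 5 and, at 2.04, with limma-voom.

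Of 12 tested genes of the SREBP2 system itself, 2 were significant (1 in 14 of the 20 fits without 1 mouse), beside 2.48% positive among all genes. Both were positive and in the opposite class, and the list median was 0.17. *Scap*, which escorts SREBP2 to the Golgi, was 162, 137, 159, 165 and 147 CPM in Sham Chow and 109, 120, 116, 131 and 137 CPM in Sham HFD, and 158, 180, 125, 151 and 150 CPM in RYGB Chow and 193, 195, 182, 186 and 201 CPM in RYGB HFD, with Sham HFD below every other mouse except Sham Chow replicate 2 and RYGB Chow replicate 3, and RYGB HFD above all others. Its interaction was 0.66 (SE 0.12, adjusted p = 0.00388) from responses of -0.33 in sham and 0.33 in RYGB mice. *Stard4*, a cytosolic sterol carrier, had 0.73 (SE 0.20, adjusted p = 0.0372), which was significant in 6 of the 20 fits without 1 mouse (adjusted p up to 0.0774). Sham HFD replicate 5 was the highest of its group for *Idi1*, *Cyp51* and *Sqle*, and what set that mouse apart was not tested.

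In bile acid handling, 4 of 14 tested genes had a significant positive and 1 a significant negative interaction, beside 2.48% and 2.58% of all genes. *Cyp7b1*, an oxysterol hydroxylase, fell on HFD in sham mice, with group values of 275 ± 95.9 CPM in Sham Chow and 75.8 ± 24 CPM in Sham HFD, and 226 ± 80.2 CPM in RYGB Chow and 230.2 ± 73.5 CPM in RYGB HFD, and an interaction of 1.89 (SE 0.38, adjusted p = 0.00704). *Slc10a1*, the main uptake transporter of bile acids, had 0.73 (SE 0.16, adjusted p = 0.0118) and fell likewise in sham mice, by 0.59 on the log2 scale. *Abcc3*, which exports conjugated bile acids and drugs into blood, was the gene in the other direction. It was 365, 419, 333, 413 and 369 CPM in Sham Chow and 343, 393, 417, 423 and 402 CPM in Sham HFD, and 425, 402, 261, 385 and 371 CPM in RYGB Chow and 185, 200, 218, 130 and 214 CPM in RYGB HFD, with all RYGB HFD mice below the other 15, and its interaction was -1.02 (SE 0.18, adjusted p = 0.00333). The rate-limiting *Cyp7a1* gave 1.47 (adjusted p = 0.175) and *Cyp8b1* -0.46 (adjusted p = 0.316).

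In the lists of lipogenesis, lipid droplets and fatty acid oxidation, all significant interactions were negative by edgeR. They were 1 of 16, 2 of 24 and 3 of 28 tested genes, beside 2.58% negative among all genes. In de novo lipogenesis 1 of 16 was significant, *Me1* (ENSMUSG00000032418, chromosome 9 from 86581371 to 86695953), the malic enzyme that supplies NADPH. Its values were 202, 411, 301, 333 and 274 CPM in Sham Chow and 377, 309, 455, 259 and 397 CPM in Sham HFD, and 299, 194, 383, 212 and 267 CPM in RYGB Chow and 89.8, 96.6, 108, 69.7 and 70.1 CPM in RYGB HFD, so RYGB HFD lay below all other mice while the other groups overlapped. The interaction was -1.88 (SE 0.28, adjusted p = 0.000772), and HFD lowered it in RYGB mice by 1.64 on the log2 scale. *Scd1*, the stearoyl-CoA desaturase, had -1.51 (adjusted p = 0.0967), *Fasn* 0.44 (adjusted p = 0.599) and *Srebf1* -0.14 (adjusted p = 0.833). *Scd1* passed the threshold, at -1.84, without RYGB HFD replicate 3. Of 24 lipid droplet and triglyceride genes, 2 were significant and negative, and 5 without Sham Chow replicate 2. *Cd36*, a fatty acid transporter, was 101, 176, 68.3, 113 and 91.8 CPM in Sham Chow and 263, 287, 308, 318 and 325 CPM in Sham HFD, and 182, 75.9, 141, 110 and 112 CPM in RYGB Chow and 119, 77.4, 149, 79.5 and 95.8 CPM in RYGB HFD, with Sham HFD above all other mice and an interaction of -1.70 (SE 0.33, adjusted p = 0.00549). *Vldlr*, a receptor for triglyceride-rich particles, had -1.91 (SE 0.38, adjusted p = 0.00704) with diet responses of 1.30 in sham and -0.61 in RYGB mice. The droplet genes *Cidec* (-2.17, adjusted p = 0.104), *Plin4* (-1.46, adjusted p = 0.116) and *Mogat1* (-1.89, adjusted p = 0.254) did not pass. *Cidec* passed without Sham Chow replicate 2, at -3.06, or RYGB HFD replicate 3, at -2.74, and with limma-voom, at -2.71.

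Fatty acid oxidation gave 3 negative interactions among 28 genes, *Hadh*, *Acaa1b* and *Pdk4*, and 1 in 12 of the 20 fits without 1 mouse. The peroxisomal thiolase *Acaa1b* rose in sham and fell in RYGB mice by unadjusted p, with 0.32 in sham and -0.50 in RYGB mice and an interaction of -0.82 (SE 0.20, adjusted p = 0.0218). The other 2 were less stable. *Hadh*, at -0.42 (SE 0.12, adjusted p = 0.0456), was significant in 5 of the 20 fits without 1 mouse (adjusted p up to 0.0862), and *Pdk4*, a brake on glucose oxidation, at -2.23 (SE 0.64, adjusted p = 0.0458), was significant in 4 of the 20 fits without 1 mouse (adjusted p up to 0.0853). *Cpt1a*, the gate of mitochondrial fatty acid entry, gave 0.14 (adjusted p = 0.423). Among 22 apolipoprotein and lipoprotein assembly genes, 3 were significant and positive (5 without RYGB Chow replicate 5) and 1 significant and negative, beside 2.48% and 2.58% of all genes. The negative one, *Apoa4* (ENSMUSG00000032080, chromosome 9 from 46240696 to 46243459), was 43, 75.4, 76.8, 60 and 70.6 CPM in Sham Chow and 606, 1440, 892, 616 and 813 CPM in Sham HFD, and 60.4, 28.4, 225, 41.6 and 75.1 CPM in RYGB Chow and 88.2, 119, 161, 88.6 and 66.8 CPM in RYGB HFD. All Sham HFD mice lay above all others, and RYGB Chow replicate 3 was the highest of the rest. The interaction was -3.46 (SE 0.58, adjusted p = 0.00201). *Apom*, which carries sphingosine 1-phosphate on HDL, had 0.87 (SE 0.19, adjusted p = 0.0115), and the HDL receptor *Scarb1* 0.53 (SE 0.13, adjusted p = 0.0187), which was lost with library size alone. *Apoc3* gave -0.10 (adjusted p = 0.761).

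**Figure D4:**
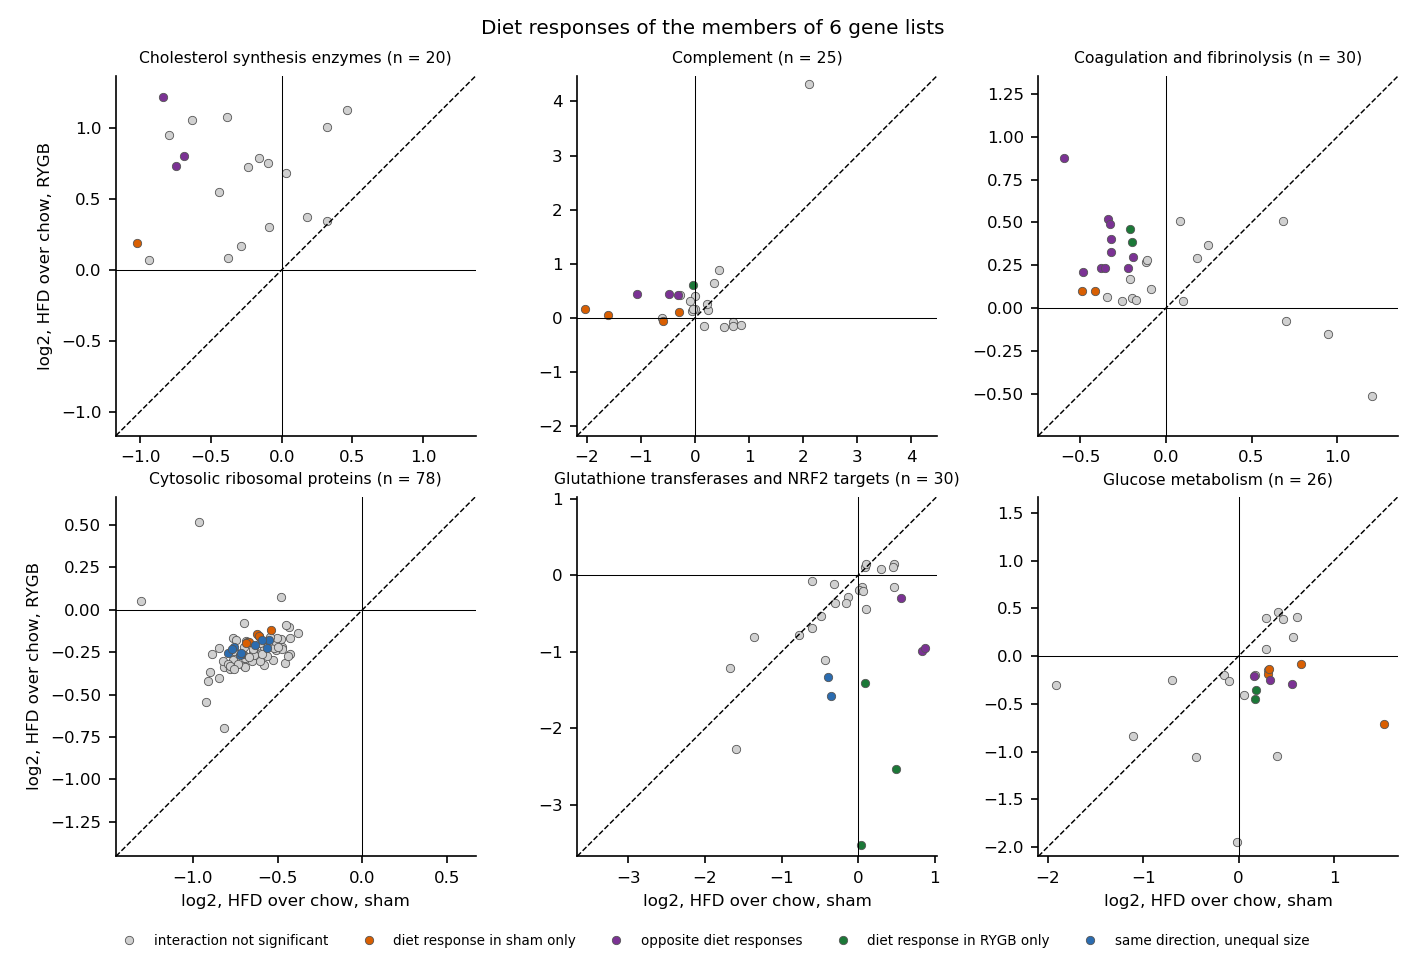
Log2 fold change of HFD over chow in sham mice (x axes) against RYGB mice (y axes) for each tested member of 6 gene lists, colored by class, with a dashed line of equal responses. All 20 cholesterol synthesis enzymes and all 78 ribosomal proteins lie above the line, and the glutathione transferases with a significant interaction lie below it.

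Glutathione transferases and NRF2 targets had significant interactions of the other sign only. Among 30 tested genes, 8 had a significant negative interaction and none a positive one by edgeR (1 positive at an unadjusted p below 0.05, and 8 or 9 negative and 0 positive under the other tools, scalings and filters), beside 2.58% negative in all genes. The list median was -0.24. After adjustment over all genes, HFD lowered 14 of the 30 in RYGB mice (beside 1.65% of all genes) and 9 in sham mice (beside 10.7%). *Gstm3*, *Gstm2*, *Gstm1* and *Gstm4* lie in a run on chromosome 3 together with *Ampd2*, between 107963696 and 108086651, and all 5 had a negative interaction. These transferases are near-identical to each other in places, and how reads that fit several genes were counted is not given in the sources used here, so their single values are uncertain.

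*Gstm3* (ENSMUSG00000004038, chromosome 3 from 107963696 to 107969283) was 75.4, 67.9, 73.3, 91 and 85.9 CPM in Sham Chow and 76.3, 116, 135, 64.2 and 160 CPM in Sham HFD, and 137, 135, 53.5, 68.1 and 214 CPM in RYGB Chow and 17.9, 19.8, 17.5, 21.5 and 28.6 CPM in RYGB HFD. All RYGB HFD mice lay below the other 15, and the other groups overlapped. HFD over chow was 0.49 in sham mice (SE 0.29, adjusted p = 0.23) and -2.53 in RYGB mice (SE 0.31, adjusted p = 6e-05), and the interaction was -3.02 (SE 0.42, adjusted p = 0.000369). *Gstm2* was 59.5, 49.8, 46.6, 68.9 and 63.4 CPM in Sham Chow and 75.3, 105, 105, 112 and 131 CPM in Sham HFD, and 75.5, 74.4, 33.7, 54.6 and 101 CPM in RYGB Chow and 37.8, 37.5, 32.7, 29.9 and 36.7 CPM in RYGB HFD, so Sham HFD lay above both chow groups except for RYGB Chow replicates 1 and 5, and RYGB HFD below them except for RYGB Chow replicate 3. Its interaction was -1.83 (SE 0.28, adjusted p = 0.00118). *Gsta1* (ENSMUSG00000074183, chromosome 9 from 78230656 to 78242684) was 5.75, 5.95, 6.11, 4.85 and 4.67 CPM in Sham Chow and 2.43, 7.35, 6.8, 4.91 and 6.45 CPM in Sham HFD, and 5.07, 6.52, 1.26, 2.93 and 8.43 CPM in RYGB Chow and 0.653, 0, 1.04, 0 and 0.399 CPM in RYGB HFD, with RYGB HFD below every other mouse and 2 of its mice without a count. The interaction was -3.55 (SE 0.75, adjusted p = 0.00885). *Nqo1* (ENSMUSG00000003849, chromosome 8 from 107388225 to 107403206), a quinone reductase and classic NRF2 target, was 9.61, 7.24, 7.17, 6.21 and 5.33 CPM in Sham Chow and 14, 13.8, 9.88, 11.9 and 13.9 CPM in Sham HFD, and 7.19, 6.3, 6.54, 5.72 and 12.6 CPM in RYGB Chow and 4.52, 4.06, 4.38, 1.83 and 4.52 CPM in RYGB HFD. Sham HFD lay above Sham Chow and RYGB HFD below RYGB Chow without overlap, and the interaction was -1.81 (SE 0.33, adjusted p = 0.00317) from diet responses of 0.83 in sham and -0.98 in RYGB mice. *Gstm1* fell under both surgeries by unadjusted p, more in RYGB mice (-0.36 in sham and -1.58 in RYGB mice), with an interaction of -1.21 (SE 0.20, adjusted p = 0.00159). The antioxidant response element, spelled TGACNNNGC and searched on both strands, was in the 250 bases before the start of 7 of 26 list members with a RefSeq promoter and of 11.5% of all genes, and in 0 of the 8 members with a significant interaction. Sequence beyond these 250 bases was not searched, so the counts do not show whether these genes have such an element.

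Cytochrome P450 genes, which oxidize steroids and foreign compounds, split in direction, with 3 positive and 6 negative interactions among 33 (beside 2.48% and 2.58% of all genes) and a median of -0.02. Without RYGB Chow replicate 3, 10 were negative. *Cyp2a4* (ENSMUSG00000074254, chromosome 7 from 26307169 to 26315088), a steroid hydroxylase higher in female than male liver, was 0.0966, 0.673, 0.139, 1.57 and 0.485 CPM in Sham Chow and 12.6, 26.2, 17.7, 16.1 and 38.5 CPM in Sham HFD, and 2.61, 0.323, 13.2, 1.91 and 3.06 CPM in RYGB Chow and 0.435, 1.04, 0.231, 0.0591 and 0.266 CPM in RYGB HFD. The Sham HFD mice lay above all others except RYGB Chow replicate 3, and RYGB HFD overlapped with Sham Chow. The diet response was 5.34 in sham mice (SE 0.75, adjusted p = 6.02e-05) and -3.30 in RYGB mice (SE 0.79, adjusted p = 0.0245) and the interaction -8.64 (SE 1.08, adjusted p = 0.000159). *Cyp2b9*, also female-biased, was 8.02, 1.97, 0.786, 19.4 and 0.667 CPM in Sham Chow and 80.6, 219, 274, 328 and 395 CPM in Sham HFD, and 9.75, 6.25, 11, 1.76 and 26.3 CPM in RYGB Chow and 8.43, 8.69, 4.32, 7.93 and 8.57 CPM in RYGB HFD, with Sham HFD above all others and an interaction of -5.98 (SE 0.98, adjusted p = 0.00179). Both genes have near-identical relatives. *Cyp2c67* had 0.99 (SE 0.16, adjusted p = 0.002). *Cyp2b10*, the standard target of the receptor CAR, was 16.4, 3.93, 6.11, 12.1 and 13.4 CPM in Sham Chow and 0.87, 1.76, 2.41, 1.92 and 2.28 CPM in Sham HFD, and 2.83, 2.75, 0.0549, 0.782 and 4.08 CPM in RYGB Chow and 0, 0, 0, 0.0591 and 0 CPM in RYGB HFD. RYGB HFD held a single count in 1 of its 5 mice and none in the others, and the interaction of -4.37 had an adjusted p = 0.0936 and passed with DESeq2, at -4.56 (adjusted p = 0.0138), and without RYGB Chow replicate 3, at -4.69. *Cyp3a11* and *Cyp2c29* fell on HFD under both surgeries, with -2.76 in sham and -3.67 in RYGB mice for the first and -1.52 in sham and -1.75 in RYGB mice for the second, and interactions of -0.92 (adjusted p = 0.0611) and -0.23 (adjusted p = 0.692). Without RYGB Chow replicate 3, Sham HFD replicate 1 or RYGB HFD replicate 3, *Cyp3a11* passed at -1.05 to -1.12, and it also passed with DESeq2 (-0.92) and with library size alone (-1.05).

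Conjugating enzymes and carboxylesterases gave 3 positive and 1 negative interaction among 32, beside 2.48% and 2.58% of all genes. *Ces3b*, which hydrolyses esters in the endoplasmic reticulum, had 1.90 (SE 0.39, adjusted p = 0.00804), and *Ces3a* 0.61 (SE 0.15, adjusted p = 0.0261), lost without Sham Chow replicate 5, Sham HFD replicate 3 or 5 or RYGB HFD replicate 4, at 0.54 to 0.57. *Sult2a8*, a male-biased sulfotransferase, gave 0.95 (SE 0.21, adjusted p = 0.0136) and *Ces2a* 0.60 (adjusted p = 0.0936). *Ces2a* passed without RYGB Chow replicate 3 (0.44) or 5 (0.69) and with gene length offsets (0.65). The *Ces* genes are also close copies, and their single values carry the same doubt.

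Growth hormone dependent and sex-dimorphic genes leaned to positive interactions, with 6 positive and 2 negative (1 in 11 of the 20 fits without 1 mouse) among 23, beside 2.48% and 2.58% of all genes, and a median of 0.72. This list was drawn up with earlier results of these mice known. *Hsd3b5* (ENSMUSG00000038092, chromosome 3 from 98618634 to 98630252), a steroid reductase of male liver, was 194, 61.5, 195, 92 and 189 CPM in Sham Chow and 4.87, 0.37, 0.507, 0.0599 and 0.0438 CPM in Sham HFD, and 61.6, 200, 63.3, 213 and 59.4 CPM in RYGB Chow and 141, 223, 170, 318 and 183 CPM in RYGB HFD. Sham HFD mice lay between 0.0438 and 4.87 CPM and below every other mouse, whose values overlapped between the 3 groups. The diet response was -7.07 in sham mice (SE 0.74, adjusted p = 3.71e-06) and 0.79 in RYGB mice (SE 0.52, adjusted p = 0.441), and the interaction was 7.86 (SE 0.89, adjusted p = 7.09e-05). *Igfbp2* (ENSMUSG00000039323, chromosome 1 from 72824503 to 72852474), a carrier of insulin-like growth factors, was 787, 359, 595, 691 and 588 CPM in Sham Chow and 196, 151, 151, 205 and 129 CPM in Sham HFD, and 675, 1260, 943, 677 and 1110 CPM in RYGB Chow and 765, 1280, 802, 1190 and 1650 CPM in RYGB HFD, again with Sham HFD below the other 15 mice, and had an interaction of 2.15 (SE 0.32, adjusted p = 0.000915). *Igf1*, the growth factor that liver releases under growth hormone, had 0.77 (SE 0.15, adjusted p = 0.00597) from responses of -0.58 in sham and 0.19 in RYGB mice. Of the major urinary protein genes, abundant in male liver, *Mup3*, *Mup20* and *Mup21* were on the list and had 0.64, 0.95 and 1.29, all short of the threshold. A pair of other runs of them on chromosome 4 with positive interactions, from *Mup9* to *Mup1* (60418046 to 60501960) and from *Mup13* to *Mup14* (61224307 to 61304000), was named after their values were seen, and these genes are near-identical copies.

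Iron genes were split as well, with 2 positive and 6 negative interactions among 24, beside 2.48% and 2.58% of all genes. *Hamp* (ENSMUSG00000050440, chromosome 7 from 30942368 to 30944032), which encodes hepcidin, the hormone that blocks iron export from cells, was 721, 736, 1100, 625 and 964 CPM in Sham Chow and 403, 437, 298, 231 and 265 CPM in Sham HFD, and 3.05, 4.9, 447, 1.08 and 10.8 CPM in RYGB Chow and 0.163, 0.521, 0.115, 0.0591 and 0.0665 CPM in RYGB HFD. RYGB HFD lay below every other mouse and Sham HFD below every Sham Chow mouse, and RYGB Chow lay between 1.08 and 10.8 CPM apart from replicate 3. HFD over chow was -1.34 in sham mice (SE 0.95, adjusted p = 0.323) and -8.86 in RYGB mice (SE 1.62, adjusted p = 0.00372), and the interaction was -7.51 (SE 1.93, adjusted p = 0.0283). Without RYGB Chow replicate 3 the interaction was -3.27 (adjusted p = 0.0200), and without RYGB HFD replicate 4 it missed the threshold at -7.30 (adjusted p = 0.0549). *Hamp2* (ENSMUSG00000056978, chromosome 7 from 30922372 to 30924681), a close copy of *Hamp* beside it, was 5.99, 8.75, 7.26, 20 and 13.5 CPM in Sham Chow and 12.3, 21.3, 34.5, 37.1 and 54.3 CPM in Sham HFD, and 4.58, 1.51, 0.494, 0.587 and 4.08 CPM in RYGB Chow and 0, 0, 0, 0 and 0 CPM in RYGB HFD. With 0 counts in all RYGB HFD mice its level lay at least 12.9-fold under that of RYGB Chow, against a floor of 3 counts per library, and it had an interaction of -9.93 (diet responses of 1.54 in sham and -8.39 in RYGB mice, adjusted p = 0.00295), whose size depends on the prior count of the fit.

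*Trf* (ENSMUSG00000032554, chromosome 9 from 103204001 to 103230444), plasma transferrin, was 862, 876, 1070, 1020 and 1080 CPM in Sham Chow and 844, 762, 822, 699 and 735 CPM in Sham HFD, and 885, 935, 810, 781 and 962 CPM in RYGB Chow and 1150, 1060, 1330, 1180 and 1070 CPM in RYGB HFD. Sham HFD lay below Sham Chow and RYGB HFD above RYGB Chow, both without overlap. The interaction was 0.75 (SE 0.13, adjusted p = 0.00201), with diet responses of -0.35 in sham and 0.41 in RYGB mice. *Tfr2*, the iron sensor of hepatocytes, had the same signs at -0.30 in sham and 0.15 in RYGB mice and an interaction of 0.45 (SE 0.10, adjusted p = 0.0104). The transferrin receptor *Tfrc* had 0.85 (adjusted p = 0.281), and passed without RYGB HFD replicate 2, at 1.09. The number of negative iron genes fell from 6 to 3 without RYGB HFD replicate 4.

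Of 26 tested genes of sugar metabolism, 9 had a significant interaction and all 9 were negative, beside 2.58% negative in all genes. The list had a median interaction of -0.41 and median diet responses of 0.29 in sham and -0.23 in RYGB mice. The count was 5 with gene length offsets. It fell to 3 without Sham HFD replicate 3 or RYGB HFD replicate 4, to 4 without Sham Chow or Sham HFD replicate 5, and to 5 without RYGB Chow replicate 1, Sham HFD replicate 2 or RYGB HFD replicate 5. *Khk* (ENSMUSG00000029162, chromosome 5 from 30921431 to 30931248), which commits fructose to metabolism, was 311, 300, 397, 420 and 382 CPM in Sham Chow and 535, 546, 544, 488 and 546 CPM in Sham HFD, and 380, 401, 338, 332 and 480 CPM in RYGB Chow and 309, 344, 317, 340 and 263 CPM in RYGB HFD. Sham HFD lay above all other mice, and RYGB HFD overlapped with both chow groups at their lower end. The interaction was -0.85 (SE 0.15, adjusted p = 0.00308). The glycolytic enzyme *Eno1* had -0.59 (SE 0.12, adjusted p = 0.00847) from 0.33 in sham and -0.25 in RYGB mice, and *Fbp1* of gluconeogenesis -0.45 (SE 0.10, adjusted p = 0.00963) from 0.32 in sham and -0.13 in RYGB mice. *Pck1* of gluconeogenesis gave 0.27 (adjusted p = 0.768) and *G6pc*, which releases glucose, -0.61 (adjusted p = 0.344). In the insulin signaling list, 1 of 16 genes was significant (beside 5.06% of all genes), *Grb14*, an inhibitor of the insulin receptor, with 0.53 (SE 0.14, adjusted p = 0.0263). It was lost without Sham Chow replicates 3, 4 or 5, Sham HFD replicate 3 or RYGB HFD replicate 2, at 0.48 to 0.51. *Irs2* gave 0.62 (adjusted p = 0.207), and 0.84, past the threshold, without RYGB Chow replicate 3.

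Of 33 genes of nitrogen metabolism, 1 had a significant positive and 1 a significant negative interaction, near the 2.48% and 2.58% of all genes. *Cps1*, the first enzyme of the urea cycle, fell on HFD in sham mice, with -1.01 in sham and 0.02 in RYGB mice and an interaction of 1.03 (SE 0.27, adjusted p = 0.0332), which was significant in 10 of the 20 fits without 1 mouse (adjusted p up to 0.0665). *Glul*, glutamine synthetase of the hepatocytes around the central vein, had -0.80 (SE 0.18, adjusted p = 0.0124) from 0.86 in sham and 0.06 in RYGB mice. Acute-phase genes gave 1 of each direction among 20, beside the same shares of all genes. *Saa2*, serum amyloid A, was 6.27 ± 3.11 CPM in Sham Chow and 39.6 ± 16.1 CPM in Sham HFD, and 15.3 ± 13 CPM in RYGB Chow and 15.2 ± 7.15 CPM in RYGB HFD, with -2.64 (SE 0.63, adjusted p = 0.0185), while its close copy *Saa1* gave -1.52 (adjusted p = 0.127). *Itih3*, of the inter-alpha-trypsin inhibitors that stabilise matrix, rose in RYGB mice only, with 0.98 (SE 0.19, adjusted p = 0.00549) from -0.09 in sham and 0.89 in RYGB mice. *Orm1* had 0.62 (adjusted p = 0.159).

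**Figure D5:**
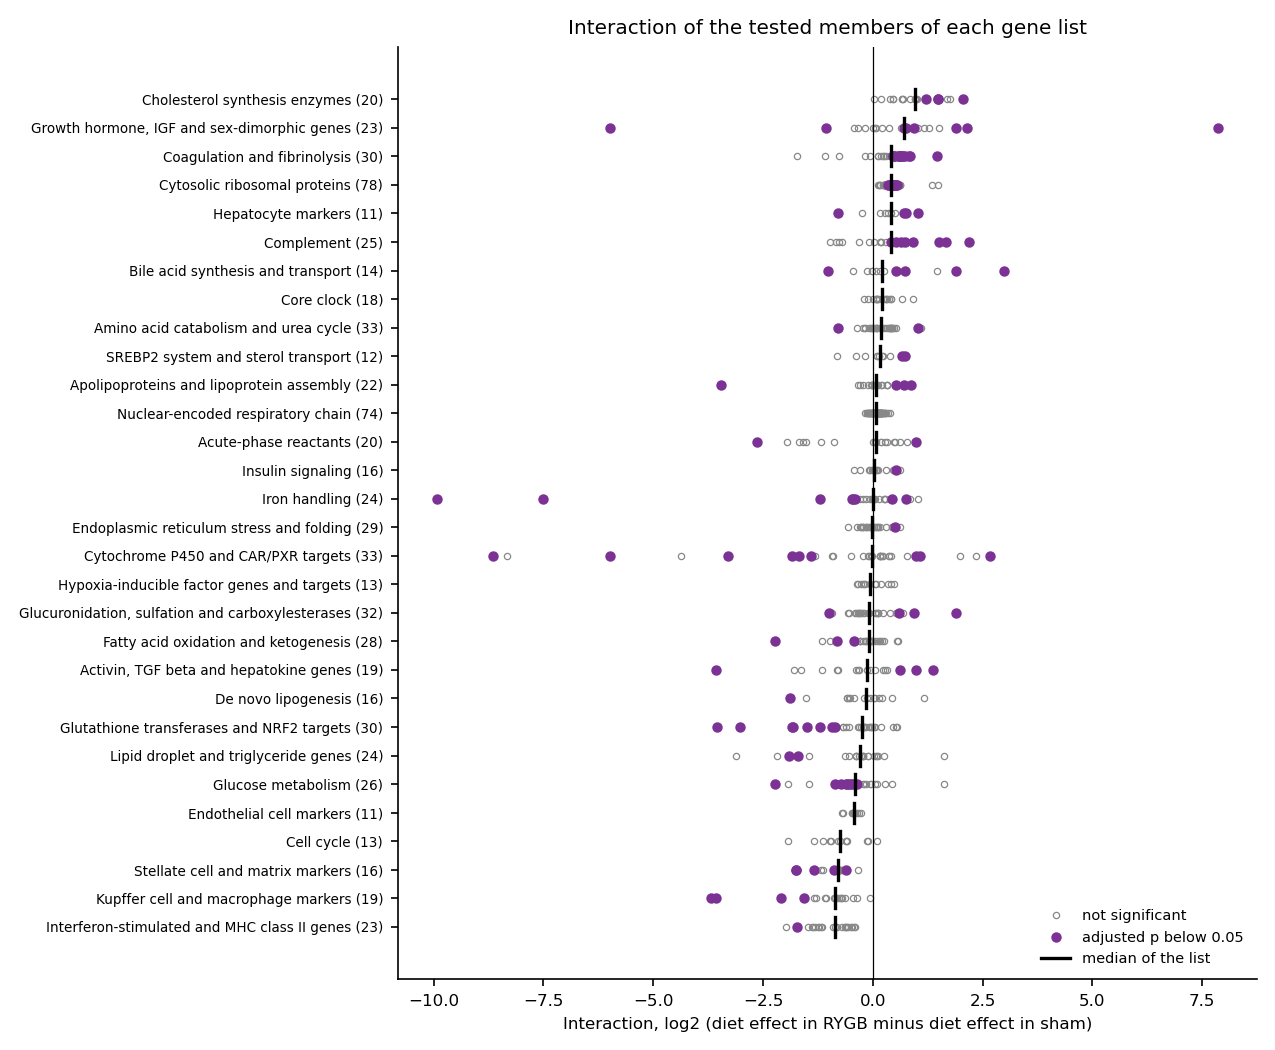
Interaction on the log2 scale (x axis) of each tested member of the 30 gene lists with at least 10 tested genes (rows, with their number), filled where significant, with a black bar at the median. The medians run from cholesterol synthesis at 0.96 to interferon-stimulated and MHC class II genes at -0.87, and the median of all tested genes was 0.0155.

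Ribosomal proteins fell on HFD in sham mice. Of 78 tested, 76 fell significantly in Sham Chow vs. Sham HFD (beside 10.7% of all genes) and 1 in RYGB Chow vs. RYGB HFD (beside 1.65%). The median diet responses were -0.66 in sham and -0.23 in RYGB mice. All 78 interactions were positive, with a median of 0.42, and 15 were significant, beside 2.48% positive among all genes. That count depended on scaling and on single mice. It was 1 with library size alone (median 0.28), 3 with no filter, 38 with gene length offsets (median 0.42), 26 with DESeq2, and between 4 and 9 in 14 of the 20 fits without 1 mouse. The other 6 left out Sham Chow replicate 1, which gave 38, Sham Chow replicate 2, RYGB Chow replicate 2 or 5 or RYGB HFD replicate 1 or 3. *Rplp0*, of the ribosomal stalk, was 418, 427, 474, 458 and 486 CPM in Sham Chow and 279, 323, 318, 318 and 320 CPM in Sham HFD, and 412, 430, 471, 441 and 483 CPM in RYGB Chow and 412, 425, 379, 431 and 416 CPM in RYGB HFD. All Sham HFD mice lay below the other 15, whose groups overlapped, and the interaction was 0.42 (SE 0.10, adjusted p = 0.0145). *Rpsa*, with 0.54 (SE 0.12, adjusted p = 0.011), and *Rps26*, with 0.54 (SE 0.13, adjusted p = 0.0211), also passed. *Rps3* gave 0.23 (adjusted p = 0.298), and *Rpl3*, at 0.49 (SE 0.14, adjusted p = 0.0435), was significant in 5 of the 20 fits without 1 mouse (adjusted p up to 0.0908). In the 74 nuclear-encoded respiratory chain genes, 0 interactions were significant by edgeR (2 positive and 0 negative at an unadjusted p below 0.05) and 1 by DESeq2, and the median of 0.08 turned to -0.05 with library size alone. For *Ndufs1* the value was -0.06 (adjusted p = 0.803) and for *Cox4i1* 0.16 (adjusted p = 0.557).

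Protein folding genes gave 1 significant interaction among 29 (beside 5.06% of all genes), the chaperone *Hspa8* at 0.51 (SE 0.15, adjusted p = 0.0485), which was significant in 2 of the 20 fits without 1 mouse (adjusted p up to 0.101). *Hspa5* had -0.17 (adjusted p = 0.72) and *Ddit3* -0.35 (adjusted p = 0.474). The 18 core clock genes and 13 genes of the hypoxia-inducible factors had 0 significant interactions by edgeR, DESeq2 and limma-voom. At an unadjusted p below 0.05, edgeR gave 0 clock genes and 3 positive and 1 negative hypoxia genes. *Arntl* had 0.66 (adjusted p = 0.686), *Per2* 0.29 (adjusted p = 0.708) and *Epas1* 0.48 (adjusted p = 0.21).

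Matrix, stellate cell, macrophage and endothelial genes had interactions below 0 in every tested member of their lists, most of them not significant. Of 16 matrix and stellate cell genes all 16 were negative, 5 significantly (beside 2.58% negative among all genes), with a median of -0.79 and diet responses of 0.98 in sham and 0.16 in RYGB mice. *Col1a1* (ENSMUSG00000001506, chromosome 11 from 94936224 to 94953042), a chain of fibrillar collagen, was 3.77, 6, 7.68, 3.57 and 1.52 CPM in Sham Chow and 16.1, 22.6, 18.2, 14.9 and 15.9 CPM in Sham HFD, and 3, 1.56, 3.13, 4.35 and 4.42 CPM in RYGB Chow and 4.84, 4.11, 3.34, 3.19 and 3.32 CPM in RYGB HFD, with Sham HFD above the other 15 mice, which overlapped. The interaction was -1.75 (SE 0.43, adjusted p = 0.0212). *Col3a1* had -1.34 (SE 0.30, adjusted p = 0.013) and rose in both surgeries by unadjusted p, with 1.80 in sham and 0.46 in RYGB mice. The summed level of the whole list was 227 to 342 CPM (median 286) in Sham Chow and 482 to 557 CPM (median 527) in Sham HFD, and 286 to 384 CPM (median 346) in RYGB Chow and 292 to 443 CPM (median 392) in RYGB HFD. Sham HFD thus stood above the rest for the list as a whole. *Acta2*, *Timp1* and *Lox* were too low to be tested. Without RYGB Chow replicate 5, 8 of the 16 were significant.

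Macrophage markers were all negative too, 19 of 19, with a median of -0.86 and 4 significant (beside 2.58% negative among all genes), which were *Gpnmb*, *Mmp12*, *Cd63* and *Lgals3*, the last 3 named after their values were seen. The lead marker *Gpnmb* of lipid-laden macrophages was 0.193, 1.55, 0.0463, 0.0714 and 0.0606 CPM in Sham Chow and 2.84, 2.87, 2.96, 2.88 and 3.38 CPM in Sham HFD, and 2.23, 0, 1.21, 2.59 and 3.74 CPM in RYGB Chow and 1.41, 1.46, 2.13, 0.532 and 0.532 CPM in RYGB HFD, a low level in all groups, and its interaction of -3.56 (SE 1.01, adjusted p = 0.044) was significant in 4 of the 20 fits without 1 mouse (adjusted p up to 0.0828). *Clec4f*, the defining gene of Kupffer cells, gave -0.70 (adjusted p = 0.151) and *Trem2* -0.63 (adjusted p = 0.628). Summed over the list, macrophage markers ran over 183 to 454 CPM (median 304) in Sham Chow and 427 to 569 CPM (median 551) in Sham HFD, and 350.5 to 801 CPM (median 495) in RYGB Chow and 370.0 to 615 CPM (median 534) in RYGB HFD, with overlap between all groups. Of 23 interferon-stimulated and MHC class II genes, all had negative interactions (median -0.87). By DESeq2, 8 were significant, where 493 of all 12289 tested genes had a significant negative interaction. By edgeR, 1 was significant, beside 2.58% negative among all genes. This was *Ifit2*, at 4.25, 3.57, 2.27, 3.28 and 3.03 CPM in Sham Chow and 7.65, 5.83, 5.15, 6.29 and 8.42 CPM in Sham HFD, and 4.85, 4.15, 7.03, 5.77 and 3.51 CPM in RYGB Chow and 3.86, 2.39, 2.31, 4.55 and 2.33 CPM in RYGB HFD. Sham HFD lay above Sham Chow without overlap, and RYGB HFD overlapped with RYGB Chow. Its interaction was -1.73 (SE 0.33, adjusted p = 0.00493) from 1.02 in sham and -0.71 in RYGB mice. *Ifit1* gave -1.15 (adjusted p = 0.0633) and passed with DESeq2 (-1.16), with library size alone (-1.28) and without RYGB Chow replicate 1 (-1.27) or 2 (-1.25). *H2-Aa* gave -0.49 (adjusted p = 0.548), and its sign turned (0.0129) without RYGB Chow replicate 5. Without RYGB Chow replicate 1 or 2, 6 and 5 genes of this list were significant.

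Endothelial genes were negative in 11 of 11, with a median of -0.42, and 0 were significant by edgeR or DESeq2 (0 positive and 0 negative at an unadjusted p below 0.05). *Stab2*, a scavenger receptor of sinusoids, gave -0.26 (adjusted p = 0.71). Cell cycle genes were negative in 12 of 13, with 0 significant by edgeR (0 positive and 7 negative at an unadjusted p below 0.05) and 1 by DESeq2, and *Mki67* gave -0.98 (adjusted p = 0.134) and *Top2a* -1.14 (adjusted p = 0.177). Hepatocyte markers were positive in 9 of 11. Of the 11, 3 had a significant positive and 1 a significant negative interaction, beside 2.48% and 2.58% of all genes. The positive count was 5 without Sham Chow replicate 2. It was 1 without Sham Chow replicate 3, 4 or 5, RYGB Chow replicate 4 or Sham HFD replicate 2 or 3. *Alb* gave 0.27 (adjusted p = 0.436) and *Ttr* -0.25 (adjusted p = 0.326). The summed hepatocyte list was 88573 to 107901 CPM (median 100557) in Sham Chow and 76898 to 89689 CPM (median 84905) in Sham HFD, and 79052 to 130542 CPM (median 125229) in RYGB Chow and 107261 to 125559 CPM (median 114338) in RYGB HFD, where the HFD groups did not overlap. Part of this list is also in the iron, apolipoprotein and nitrogen lists. Marker genes of cholangiocytes, lymphocytes, red cells and neutrophils, and of fat and pancreas were mostly too low. Among their 15 tested members 1 was significant (beside 5.06% of all genes), *Tff3* with an interaction of 3.49, named after its value was seen. *Ly6g* and *Ins2*, which define neutrophils and pancreatic beta cells, were at 0 in all mice. *Cd79a* had -1.65 (adjusted p = 0.287) and *Hbb-bs* 0.19 (adjusted p = 0.913). The part of cell composition in any interaction was not tested.

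Of 19 genes of activin, TGF beta and other liver-secreted signals, 3 had a significant positive interaction and 1, *Gpnmb*, a significant negative one, beside 2.48% and 2.58% of all genes. *Inhba*, a subunit of activin A, was 10.7, 10.1, 11.8, 9.14 and 7.52 CPM in Sham Chow and 5.45, 4.99, 3.25, 5.09 and 4.91 CPM in Sham HFD, and 12.7, 10.9, 19.4, 13 and 11.2 CPM in RYGB Chow and 13.5, 20.6, 21.2, 16.4 and 11 CPM in RYGB HFD. Sham HFD lay below the other 15 mice, and the interaction was 1.37 (SE 0.27, adjusted p = 0.00704). The related *Inhbe* had -0.80 (adjusted p = 0.114), and passed without Sham Chow replicate 2, at -0.95. *Fetub*, a liver protease inhibitor, was 481 ± 38.7 CPM in Sham Chow and 249 ± 15.7 CPM in Sham HFD, and 496 ± 81.4 CPM in RYGB Chow and 507 ± 16.4 CPM in RYGB HFD, with 0.98 (SE 0.13, adjusted p = 0.000239), and its neighbour *Ahsg*, fetuin-A, also counted in the coagulation list, had 0.61 (SE 0.13, adjusted p = 0.00804) from -0.38 in sham and 0.23 in RYGB mice.

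Among the genes with the smallest p-values, several belonged to none of the lists. *Anxa2* (ENSMUSG00000032231, chromosome 9 from 69453620 to 69491795), a phospholipid-binding annexin, was 7, 9.47, 9.81, 9.71 and 4.18 CPM in Sham Chow and 41.2, 62.9, 65.9, 45.3 and 57.6 CPM in Sham HFD, and 9.1, 9.05, 8.24, 11.8 and 8.26 CPM in RYGB Chow and 15.4, 9.06, 14.1, 11 and 11 CPM in RYGB HFD, with Sham HFD far above the 15 others and an interaction of -2.38 (SE 0.28, adjusted p = 7.09e-05). *Acnat2* (ENSMUSG00000060317, chromosome 4 from 49379840 to 49408151), a peroxisomal acyltransferase, was 16.9, 19, 18.3, 14.5 and 23.4 CPM in Sham Chow and 52.3, 57.4, 79.3, 77.6 and 77.4 CPM in Sham HFD, and 47.3, 39.8, 40.2, 20.6 and 42.6 CPM in RYGB Chow and 23.7, 18, 23.7, 18 and 36.6 CPM in RYGB HFD. Sham HFD lay above all other mice, RYGB Chow above Sham Chow apart from replicate 4, and HFD moved it by 1.90 in sham and -0.67 in RYGB mice, for an interaction of -2.57 (SE 0.30, adjusted p = 7.09e-05). *Slc22a27*, an organic anion transporter, had -4.17 (SE 0.58, adjusted p = 0.000369) and *Wfdc2*, a secreted protein, -3.07 (SE 0.46, adjusted p = 0.00077). *Ppt1*, a lysosomal thioesterase, had -0.67 (SE 0.10, adjusted p = 0.00069) from 0.65 in sham and -0.01 in RYGB mice, and the phospholipase *Abhd3* -0.77 (SE 0.11, adjusted p = 0.000364) from 0.36 in sham and -0.41 in RYGB mice.

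On the positive side, the fatty acid binding protein *Fabp5* was 18.2, 26.3, 45.2, 24.9 and 23.2 CPM in Sham Chow and 4.46, 3.98, 2.83, 2.76 and 3.24 CPM in Sham HFD, and 14, 15.3, 6.98, 22.2 and 16.4 CPM in RYGB Chow and 14, 28.6, 9.74, 21.3 and 14.7 CPM in RYGB HFD. Its Sham HFD mice lay below all others, and the interaction was 3.24 (SE 0.43, adjusted p = 0.000239). The disulfide isomerase *Pdia5* had 0.99 (SE 0.13, adjusted p = 0.000187) from -0.80 in sham and 0.19 in RYGB mice. *Tbc1d30*, a Rab GTPase activator, was 20.4, 9.11, 16.3, 22.1 and 15.3 CPM in Sham Chow and 6.84, 7.72, 5.87, 5.87 and 6.49 CPM in Sham HFD, and 12.5, 14.9, 16.7, 14.4 and 15.3 CPM in RYGB Chow and 31, 22, 17.1, 29.9 and 23.9 CPM in RYGB HFD. Sham HFD lay below every other mouse and RYGB HFD above every RYGB Chow mouse, so the diet responses were of opposite sign (-1.34 in sham and 0.75 in RYGB mice), with an interaction of 2.09 (SE 0.27, adjusted p = 0.000185). *Ang*, a ribonuclease that stands beside *Rnase4*, also of positive interaction, on chromosome 14, had 1.26 (SE 0.22, adjusted p = 0.0024) from -0.65 in sham and 0.61 in RYGB mice. Among opposite responses of the reverse kind were *Reep5*, which shapes the endoplasmic reticulum, with -0.94 (SE 0.18, adjusted p = 0.00451), and *Fez2*, with -0.58 (SE 0.11, adjusted p = 0.00594).

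Interaction genes often lay beside each other. Of the 622, 83 (13.3%) had as the next tested gene, within 100 kb, another of the same direction, whereas 7.21% of all tested genes had an interaction gene of either direction in that place, and the 83 formed 36 runs. No test was made of this difference. Beyond the fibrinogen, complement, *Gstm* and hepcidin pairs and runs named above, *Ahsg*, *Fetub*, *Hrg* and *Kng2* formed a run of 4 on chromosome 16 (22891277 to 23029482). Neighbours can share reads where they overlap, and the strand setting of the counting is not given in the sources used here.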

How the data were processed

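Poly-A enriched, strand-specific liver libraries of 20 mice were sequenced as paired reads. Per the labels and the methods of the study, the authors trimmed with Trimmomatic (0.36), aligned to mm10 with HISAT2 (2.1.0) and counted with featureCounts (1.5.0-p3), and they deposited raw counts per gene. The annotation release, strand setting and treatment of reads that fit several genes are not given in the sources used here.

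From these counts, genes that reached a CPM of 2 in 3 or more mice, the minimum the study names, were scaled by TMM and fitted in 1 quasi-likelihood model of the 4 groups (edgeR 4.0.16, R 4.3.3) with Benjamini-Hochberg adjustment over all tested genes. The study compared groups in pairs by DESeq2 and set a factorial model aside because Sham HFD was heavier, so the interaction model is a choice made here. CPM values use TMM-scaled library sizes. A fold against a group at 0 uses a floor of 3 counts per library. P-values measure the spread between single mice. SE stands for the absolute log2 fold change divided by the square root of the F statistic of the quasi-likelihood test. It was worked back from the test and is not a direct output of the fit. The model was run on simulated counts with an equal spread for all genes and changes in RYGB HFD only, a simpler setting than these data. That run checks the code and does not test the results above. Replicate libraries were checked for duplicates, of which none was found.

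Genes were named by rule, being the 8 positive and 8 negative interactions with the smallest p-values, the 6 opposite responses of each kind with the smallest value of the larger diet p-value, up to 3 significant members of each list and its lead genes, and the lead genes of the cell marker lists. Genes without a name in use were counted only. The lists and rules were chosen with earlier results of these data known, and lists are described by counts and medians with no set test. Every list count is to be read beside the 2.48% positive and 2.58% negative among all tested genes. Alternatives were DESeq2 (1.42.0), limma-voom (3.58.1), other scalings, filters and thresholds, the replicate number as a block, and leaving out each mouse. Positions are from GENCODE on GRCm38, and promoters from RefSeq on GRCm38.p6, searched on both strands. Motif counts of a list cover its tested members, while the shares of all genes cover the whole promoter table, tested or not. The motif share among tested genes alone was not computed. *Gsta13* matched no gene in the table. A few genes that these rules name are not reported here, and they stay in every fit and list count.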

Additional observations from a re-analysis of the deposited data

Results flagged for a closer look

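The diet response differed between sham and RYGB mice, by the interaction test itself, in 305 genes with a positive and 317 with a negative interaction, and 146 of these responses had opposite directions. The genes named in the text that passed this test are given here with the interaction on the log2 scale. In the opposite class, genes that fell in sham and rose in RYGB mice by unadjusted p were *Tbc1d30* 2.09, *Idi1* 2.06, *C8a* 1.52, *Cyp51* 1.48, *Ang* 1.26, *Pdia5* 0.99, *C3* 0.91, *Fgb* 0.86, *Fgg* 0.82, *Trf* 0.75, *Stard4* 0.73, *Fga* 0.72, *Kng1* 0.70, *Scap* 0.66, *Ahsg* 0.61, *Ces3a* 0.61, *Vtn* 0.59, *Plg* 0.49 and *Tfr2* 0.45. The reverse held for *Hamp2* -9.93, *Cyp2a4* -8.64, *Wfdc2* -3.07, *Acnat2* -2.57, *Vldlr* -1.91, *Gstm2* -1.83, *Nqo1* -1.81, *Ifit2* -1.73, *Reep5* -0.94, *Khk* -0.85, *Acaa1b* -0.82, *Abhd3* -0.77, *Eno1* -0.59 and *Fez2* -0.58. Where the diet response reached an unadjusted p below 0.05 in sham mice only, the positive values were *Hsd3b5* 7.86, *Fabp5* 3.24, *C8b* 2.19, *Igfbp2* 2.15, *Ces3b* 1.90, *Cyp7b1* 1.89, *Inhba* 1.37, *Tm7sf2* 1.21, *Cps1* 1.03, *Cyp2c67* 0.99, *Fetub* 0.98, *Sult2a8* 0.95, *Apom* 0.87, *Igf1* 0.77, *Slc10a1* 0.73, *Grb14* 0.53, *Hspa8* 0.51, *Rpl3* 0.49 and *Rplp0* 0.42, and the negative ones *Cyp2b9* -5.98, *Slc22a27* -4.17, *Gpnmb* -3.56, *Apoa4* -3.46, *Saa2* -2.64, *Anxa2* -2.38, *Pdk4* -2.23, *Col1a1* -1.75, *Cd36* -1.70, *Glul* -0.80, *Ppt1* -0.67, *Fbp1* -0.45 and *Hadh* -0.42. With an unadjusted p below 0.05 in RYGB mice only, positive values were *Itih3* 0.98 and *Scarb1* 0.53, and negative ones *Hamp* -7.51, *Gsta1* -3.55, *Gstm3* -3.02, *Me1* -1.88 and *Abcc3* -1.02. For *Hamp*, all Sham HFD mice also lay below all Sham Chow mice, at a sham diet response of -1.34. Both surgeries gave the same direction of diet response for *Rps26* 0.54, *Rpsa* 0.54, *Col3a1* -1.34 and *Gstm1* -1.21.

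A single mouse stood far from the other 4 of its group in 47 of 475 gene and group combinations (9.89%) by Dixon's criterion for 5 values (0.71), of which chance flags about 1 in 20. In RYGB Chow replicate 3 these were 225 for *Apoa4*, 13.2 for *Cyp2a4*, 447 for *Hamp*, 19.4 for *Inhba*, 169 for *Inhbe*, 51.8 for *Irs2* and 49.8 for *Tm7sf2* CPM. In Sham Chow replicate 2 these were 3970 for *Ahsg*, 64 for *Cidec*, 2190 for *Cps1*, 6.37 for *Ddit3*, 391 for *G6pc*, 1.55 for *Gpnmb* and 21.6 for *Pdk4* CPM. In RYGB Chow replicate 5 these were 79.8 for *H2-Aa*, 13.2 for *Ifit1*, 12.6 for *Nqo1* and 38.3 for *Saa2* CPM. In Sham HFD replicate 1 these were 274 for *Cox4i1*, 283 for *Cyp7a1*, 4.87 for *Hsd3b5* and 279 for *Rplp0* CPM. In RYGB HFD replicate 3 these were 1170 for *C8a*, 26 for *Cidec* and 4.32 for *Cyp2b9* CPM. In Sham HFD replicate 2 these were 3700 for *Fga*, 2710 for *Fgg* and 225 for *Inhbe* CPM. In Sham HFD replicate 5 these were 3.38 for *Gpnmb*, 73.8 for *Idi1* and 59.6 for *Sqle* CPM. In RYGB Chow replicate 4 these were 20.6 for *Acnat2* and 11.8 for *Anxa2* CPM. In RYGB HFD replicate 4 these were 0.0591 for *Cyp2b10* and 1.83 for *Nqo1* CPM. In RYGB HFD replicate 5 these were 4700 for *Cps1* and 2560 for *Pck1* CPM. In Sham Chow replicate 3 these were 641 for *Cpt1a* and 11.7 for *Saa2* CPM. In Sham Chow replicate 4 these were 377 for *Hadh* and 26.3 for *Ppt1* CPM. The mice with 1 such value were at 57.8 CPM for *Plin4* in RYGB Chow replicate 1, 200 CPM for *Idi1* in RYGB HFD replicate 1, 0.521 CPM for *Hamp* in RYGB HFD replicate 2, 1950 CPM for *Cyp2c29* in Sham Chow replicate 1, 3.25 CPM for *Inhba* in Sham HFD replicate 3 and 488 CPM for *Khk* in Sham HFD replicate 4. RYGB Chow replicate 3 and Sham Chow replicate 2 had 7 each. Sham HFD replicate 5 was the high value of its group for the sterol synthesis genes *Idi1* and *Sqle*.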

How the results depend on the processing

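The counts of positive and negative interactions were 304 and 309 with limma-voom, 302 and 323 with DESeq2 size factors in edgeR, 439 and 493 with DESeq2, 151 and 597 with library size alone, 201 and 246 with no filter, 264 and 300 with a CPM minimum of 5, and 530 and 309 with offsets for gene length, which were added after seeing the data. The share of positive calls was 49.0%, 20.2% with library size alone and 63.2% with the offsets, where the median of all genes was -0.13 and 0.06. The cause of these shifts was not tested. Of the 622 genes, 620 were also significant with DESeq2, 571 with limma-voom, 468 with library size alone, 409 with no filter and 573 with the offsets. At adjusted p below 0.1 the counts were 556 and 567, and below 0.01 they were 82 and 80. Opposite responses numbered 53 at adjusted p below 0.01 and 20 with adjusted p-values in the diet contrasts, sham only responses 569 with DESeq2, 704 below 0.1 and 89 below 0.01, and RYGB only responses 122 with DESeq2, 46 with no filter, 188 below 0.1 and 12 below 0.01. Diet genes numbered 1223 in sham mice below 0.01, and in RYGB mice 751 with DESeq2, 840 below 0.1 and 120 below 0.01. Without 1 mouse the ranges were 177 to 376 positive, 200 to 429 negative, 89 to 188 opposite, 230 to 474 sham only and 40 to 97 RYGB only genes, 2009 to 2880 diet genes in sham and 244 to 488 in RYGB mice, and 178 to 292 genes with Sham HFD apart. The RYGB only count was lowest, at 40 to 46, without Sham Chow or Sham HFD replicate 3 or 5 or RYGB HFD replicate 4, the sham only count, at 230 to 235, without Sham Chow replicate 5 or Sham HFD replicate 3 or 5, and the diet genes of RYGB mice, at 244 to 264, without RYGB HFD replicate 1, 3 or 4. With the replicate number as a block, 247 and 245 interactions were significant, 458 of them shared, and 7 named genes, *Cps1*, *Gpnmb*, *Hadh*, *Hamp* (-6.05), *Pdk4*, *Rpl3* and *Stard4*, lost their call. Deviations of same-numbered mice had a median correlation of -0.01 over 30 pairs (5 over 0.1), and those of other pairs 0.004 over 120 (20 over 0.1). The labels do not say what the numbers stand for, and this check cannot exclude a shared cage or batch. *Hamp* also lost it with limma-voom (-4.37), as did *Gpnmb* (-3.75, and -3.62 with DESeq2) and *Hspa8* (0.49). Of 76 named genes with an interaction, 62 kept it throughout and 0 changed sign. Signs turned only in genes short of the threshold, without RYGB HFD replicate 5 for *Arntl* (-0.19 in a range of -0.19 to 1.04 over the fits without 1 mouse), *Pck1* (-0.12, range -0.12 to 0.50), *Sds* (-0.048, range -0.048 to 0.52) and *Srebf1* (0.038, range -0.31 to 0.038), without RYGB Chow replicate 5 for *H2-Aa* (0.013, range -0.65 to 0.013), and without Sham Chow replicate 4 (-0.18), RYGB Chow replicates 3 (-0.017) and 4 (-0.000633) and RYGB HFD replicate 4 (-0.00814) for *Hbb-bs* (range -0.18 to 0.66). With library size alone *Cpt1a* was at -0.00466. Depth limits genes near the CPM minimum, which lie at few counts per mouse.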
